A study of Mus musculus with 6 samples.

Results

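The myeloid C-type lectin receptors described here are 10 genes, Clec4a1, Clec4a2, Clec4a3, Clec4d, Clec4e, Clec4n, Clec5a, Clec10a, Clec12a and Mgl2, chosen by name from the 33924 genes of the RPE/choroid total RNA comparison. All 10 were found in the table under these symbols and all 10 were among the 18636 genes with an adjusted p, which are called tested here. In aged mice 7 of the 10 were higher, from 2.05-fold for Clec4a2 to 39.8-fold for Clec4d. Mgl2 was lower in aged mice, by 2.96-fold. Clec4a1 and Clec10a did not pass the threshold, an adjusted p under 0.05.

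RPE/choroid is the retinal pigment epithelium, the pigmented layer behind the photoreceptors, together with the vascular choroid beneath it, scraped together from the sclera. To ask whether histone transcripts, most of which lack a poly(A) tail, are lost with age, the authors removed ribosomal RNA from total RNA and sequenced 3 libraries of young and 3 of aged C57BL/6J animals, each from the tissue of 2 eyes. The labels put the young mice at 1 to 2 months, and the aged mice at 20 to 24 months in the titles but 22 to 24 months in the time label. All are male by their labels, but the methods give both sexes and an older range for the young group, so that sex and young age are uncertain.

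C-type lectin receptors are membrane proteins of macrophages, monocytes, neutrophils and dendritic cells that bind sugars, lipids or proteins on microbes and on damaged cells. Some have no signalling motif of their own and couple to the adaptors Fcer1g or Tyrobp, whose immunoreceptor tyrosine-based activation motifs recruit the kinase Syk. Syk acts through the Card9, Bcl10 and Malt1 complex on NF-kappaB and on cytokine genes. Others carry an inhibitory motif, the ITIM, that recruits the phosphatases Ptpn6, Ptpn11 and Inpp5d, and a last group takes up glycoproteins that end in galactose or N-acetylgalactosamine. The macrophages resident in the choroid are cells in which such receptors are found.

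Each value below is from the authors' deposited DESeq2 table. It gives for each gene the mean over the 6 libraries in normalized counts (baseMean) and 1 fold change on the log2 scale, with its SE (standard error). The table carries no value per mouse, so levels cannot be shown mouse by mouse, the overlap of single mice between groups is unknown, and the spread among mice enters only through the SE. The level of each group was therefore estimated from the baseMean and the fold change, taking the 2 groups as equal in size. The file does not state which group its sign refers to. The sign was set from the study's statement that 1849 genes were higher and 2100 lower in young than in aged mice. Every direction reported here depends on this sign. Fold changes are aged over young unless said otherwise, with 95% intervals from the SE.

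Sequence bears on how far 2 of the members can be told apart. Clec10a, the macrophage galactose-type lectin 1, and Mgl2, the macrophage galactose-type lectin 2, lie next to each other in tandem on chromosome 11 of GRCm38, Mgl2 at chr11:70130329-70137550 and Clec10a at chr11:70156197-70170834, both on the plus strand. Their coding sequences were identical at 90.6% of 924 aligned bases, and the longest stretch without a difference was 183 bases, longer than a read of 100 bases. Reads were sequenced in pairs, so a read in this stretch may still be assigned by its mate. The first window below, from the coding sequence of the GENCODE annotation, is the same 120 bases in both genes (coding positions 550 to 669 of Mgl2 and 502 to 621 of Clec10a). It is shown because a read from it, taken without its mate, could come from either gene.
Mgl2 and Clec10a: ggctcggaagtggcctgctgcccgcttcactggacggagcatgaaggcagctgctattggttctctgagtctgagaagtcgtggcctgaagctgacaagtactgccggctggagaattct
The 120 bases just before it in each gene (positions 430 to 549 of Mgl2 and 382 to 501 of Clec10a) hold 8 differences, in capitals, by which reads can be assigned.
Mgl2: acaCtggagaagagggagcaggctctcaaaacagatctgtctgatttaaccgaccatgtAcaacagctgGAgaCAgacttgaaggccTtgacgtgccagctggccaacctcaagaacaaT
Clec10a: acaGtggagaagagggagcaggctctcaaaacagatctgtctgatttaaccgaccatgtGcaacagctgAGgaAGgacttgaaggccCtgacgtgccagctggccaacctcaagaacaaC
Of all words of 31 bases in the transcripts of Mgl2, 77.4% were found in no other gene, against 85.2% for Clec10a, and 419 words were shared by the pair. For Clec4a2 the share was 89.7%, with 145 words shared with Clec4a4. The other 7 members had at least 97.8% of such words to themselves, and for 4 of them, Clec4d, Clec4e, Clec5a and Clec4a1, it was 100%. The next most alike members, Clec4a2 and Clec4a3, were identical at 75.9% of 706 aligned bases with no shared run above 34 bases.

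Among the members, 8 of 10 were called, against a background of 21.2% of all genes tested. Higher in aged mice were 7 of 10, against 11.3% of genes tested, and lower was 1 of 10, against 9.92%. The median log2 fold change was 1.64 for the members and -0.01 for all genes tested. The members were picked as a family and with earlier results of these data known, and no test over the list was made. None of the 10 is among the 160 genes listed with a fold change but no p-value, the mark that DESeq2 leaves on genes with an outlying library. In the plot of fold change by gene the members run in order from Clec4d to Mgl2.

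**Figure D1:**
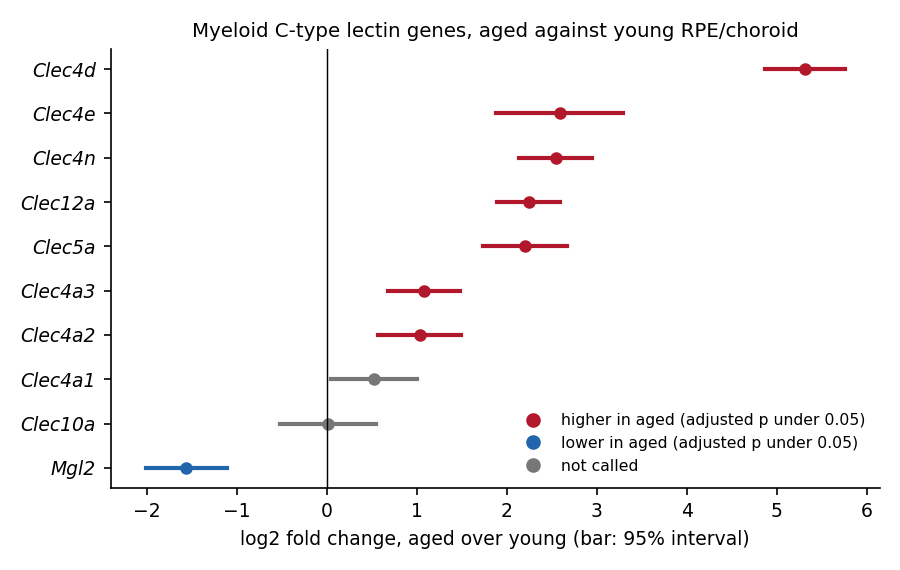
Log2 fold change of each member, aged over young (3 libraries per group), on the horizontal axis, with bars for the 95% interval. Clec4d stands at 5.31, well to the right of the next gene, Clec4e at 2.59, while the bars of Clec10a cross 0 and those of Mgl2 lie below it.

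The 3 receptors that couple to Fcer1g were the 3 members with the highest fold changes. Clec4d (macrophage C-type lectin, a receptor for the mycobacterial cord factor that pairs with the product of Clec4e) rose from an estimated 25.6 normalized counts in young to 1019 in aged mice. This is a log2 fold change of 5.31 ± 0.23 (SE, n = 3 per group), 39.8-fold with an interval of 29.3 to 54.0 (adjusted p = 1.54e-119, DESeq2). By fold change it was number 6 of the 18636 genes tested. The gene (ENSMUSG00000030144.4) is on the plus strand at chr6:123262111-123275265.

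Clec4e encodes Mincle, which binds the cord factor and also Sap130, a nuclear protein released by dying cells. It was the least abundant member, with an estimated 11.2 normalized counts in young and 67.3 in aged mice, 6.01-fold (3.69 to 9.77, adjusted p = 2.62e-11, DESeq2). On the log2 scale its interval is the widest of the 10, and among genes tested of like abundance the smallest absolute log2 fold change called was 0.73, well under the 2.59 of Clec4e. The gene Sap130 was not called, at a log2 fold change of 0.08 ± 0.17 (adjusted p = 0.783, DESeq2). This is a level of RNA and does not measure the released protein.

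Clec4n encodes Dectin-2, a receptor for fungal and mycobacterial mannans. Its estimated level was 140 normalized counts in young and 817 in aged mice, 5.83-fold (4.39 to 7.73, adjusted p = 5.26e-32, DESeq2). The intervals of Clec4e and Clec4n overlap over most of their length, whereas the lower bound of Clec4d (4.87 on the log2 scale) is above the upper bound of Clec4e (3.29). The rise of Clec4d was thus set apart from those of the other 2 receptors that couple to Fcer1g by more than the errors.

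Clec5a is the member that couples to Tyrobp, and to Hcst, and is a receptor for dengue virus that is found on monocytes, macrophages and neutrophils. It was estimated at 64.3 normalized counts in young and 295 in aged mice, 4.59-fold (3.32 to 6.36, adjusted p = 3.49e-18, DESeq2). The gene lies apart from the other members of its chromosome, on the minus strand at chr6:40574894-40585821. Summed over these 4 activating receptors, Clec4d, Clec4e, Clec4n and Clec5a, the estimated level was 241 in young and 2199 in aged mice, a ratio of 9.11. Clec4d alone gave 25.6 of the young and 1019 of the aged sum. The others each rose by 4.59-fold to 6.01-fold, less than the sum. A sum has no interval, since the table does not give how the genes varied together.

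The 2 members with an ITIM rose as well, by unequal amounts. Clec12a, an inhibitory receptor that binds uric acid crystals, was estimated at 135 normalized counts in young and 640 in aged mice, 4.74-fold (3.72 to 6.05, adjusted p = 7.89e-34, DESeq2). Clec4a2, the dendritic cell immunoreceptor, went from 65.4 to 134, 2.05-fold (1.49 to 2.82, adjusted p = 0.000177, DESeq2). The intervals of the 2 genes do not overlap. That of Clec12a overlaps those of Clec4e, Clec4n and Clec5a, so the inhibitory Clec12a and these activating receptors were not separated by their errors.

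The relatives of Clec4a2 that lack an ITIM had lower fold changes than the activating receptors. Clec4a3 was estimated at 112 normalized counts in young and 238 in aged mice, 2.11-fold (1.61 to 2.78, adjusted p = 2.23e-06, DESeq2), close to the value of Clec4a2. Clec4a1 had 81.7 in young and 118 in aged mice, and its log2 fold change of 0.52 ± 0.24, with an interval from 0.05 to 1.00, did not pass the threshold (adjusted p = 0.111, DESeq2). Among genes of like abundance the smallest absolute log2 fold change called was 0.56, so a rise of the size estimated for Clec4a1 is at the edge of what was detectable here. The intervals of Clec4a1 and Clec4a2 overlap, and the 2 genes are not shown to differ.

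The galactose-type pair behaved in yet another way. Mgl2, which binds N-acetylgalactosamine and is found on macrophages and dendritic cells, was estimated at 232 normalized counts in young and 78.4 in aged mice. Its log2 fold change was -1.56 ± 0.23 (SE, n = 3 per group), the young level being 2.96-fold the aged level (2.16 to 4.04, adjusted p = 4.09e-10, DESeq2). Counted from the greatest fall, it was number 208 of 18636. Clec10a, which prefers the Lewis X sugar, had 81.6 in young and 82.4 in aged mice, with a log2 fold change of 0.01 ± 0.27 and an interval from -0.52 to 0.54 (adjusted p = 0.981, DESeq2). This interval leaves room for a rise of up to 1.46-fold or a fall of up to 1.43-fold.

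The intervals of Clec10a and Mgl2 do not overlap. The 2 genes share the sequence shown above, and the division of shared reads between them was made by the authors' quantification, so their levels are less certain than those of the other members. Their summed level, which depends far less on that division, was 313 in young and 161 in aged mice, a ratio of 0.513. This ratio has no interval or test, and of the pair Mgl2 alone passed the threshold.

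Compared in order of fold change, neighbouring members were separated beyond their intervals at 3 points: between Clec4d and Clec4e, between Clec5a and Clec4a3, and between Clec10a and Mgl2. The other 6 pairs of neighbours overlapped. The members therefore formed a top value of Clec4d alone, a set of Clec4e, Clec4n, Clec12a and Clec5a at 4.59-fold to 6.01-fold, a set from Clec4a3 down to Clec10a whose neighbours overlap, and Mgl2 at the bottom. Non-overlap of intervals is a description here and not a test between genes, since all were measured in the same 6 libraries.

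Levels of different genes can be compared only per length, and the estimates were therefore divided by the length of 1 annotated transcript of each gene. In young mice Mgl2 had the highest estimate of the 10, at 142 normalized counts per kb, followed by Clec4n at 114 and Clec4a3 at 86.5. The ranges of Mgl2 (130 to 152) and Clec4n (89.2 to 144) overlap. The level of Mgl2 also depends on the division of reads shared with Clec10a. In aged mice Clec4d was highest, at 771 normalized counts per kb, followed by Clec4n at 665 and Clec5a at 344. Clec4e was lowest in both, at 4.45 and 26.7.

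The make-up of the family by level per kb, which rests on the same division, differed between the groups. Clec4d made up 3.06% of the members' summed level per kb in young and 30.7% in aged mice. Mgl2 made up 22.3% in young and 1.91% in aged mice. The 4 activating receptors together held 33.5% in young and 72.0% in aged mice, and the galactose-type pair 27.9% and 3.32%. Clec4a1, Clec4a2 and Clec4a3 held 30.1% and 14.5%, although their summed level rose 1.91-fold. Over all 10 members the summed level per kb rose from 634 to 2509, a ratio of 3.96. In the plot of levels by group, Clec4d is below all but Clec4e in young mice and above all others in aged mice, and Mgl2 is above all others in young mice and above Clec10a and Clec4e alone in aged mice.

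**Figure D2:**
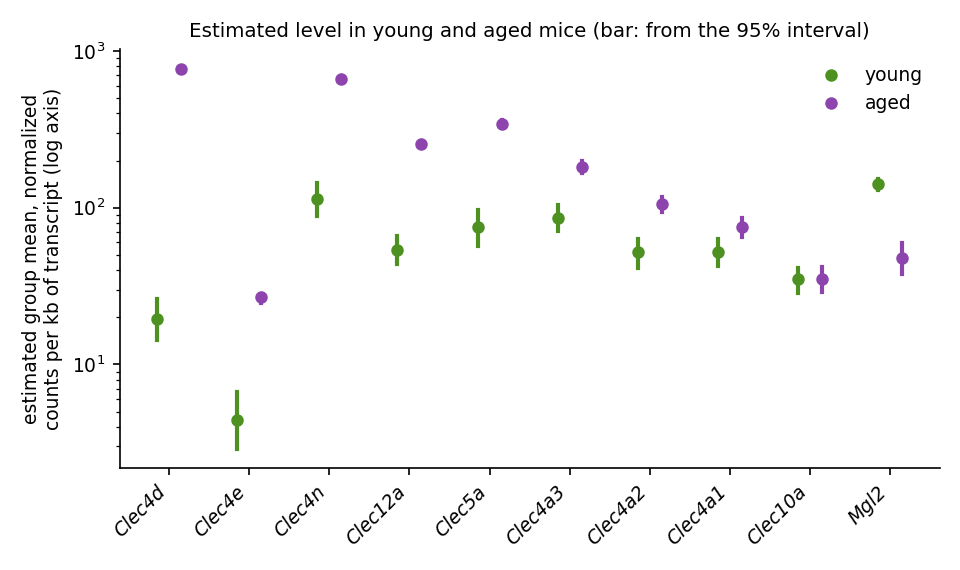
Estimated group mean of each member in normalized counts per kb of transcript, on a log axis, for each age group (n = 3 each). Bars show the range given by the 95% interval of the fold change with the baseMean held fixed. Mgl2 is highest among the young values (142), with a bar that overlaps that of Clec4n. Clec4d is highest among the aged values (771), and the points of Clec10a are level at 35.0 and 35.3.

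The plot against baseMean sets the fold changes beside abundance. Clec4d and Clec4n had similar baseMean values, 523 and 478 normalized counts, and fold changes of 39.8 and 5.83 whose intervals do not overlap. Clec4a2 and Clec4a1 both had a baseMean of 99.7, and their intervals overlap. Among genes tested of like abundance to Clec4d the median SE was 0.16, and it was 0.34 near Clec4e, so the fold change of Clec4e is the least precise of the members.

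**Figure D3:**
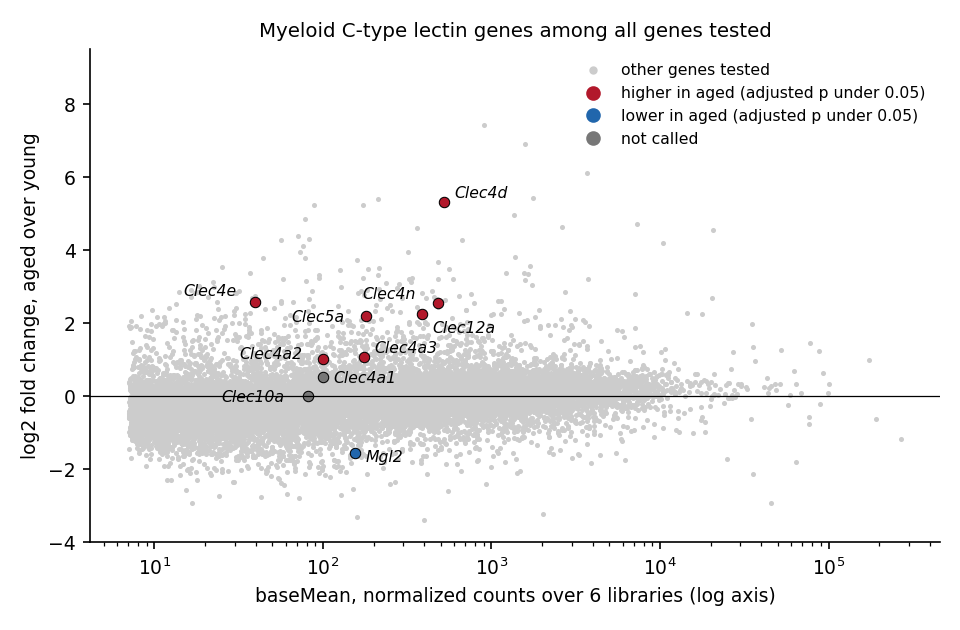
Log2 fold change (aged over young) against baseMean in normalized counts (log axis) for the 18636 genes tested, with the 10 members marked. Clec4d is at 5.31, 4 members lie between 2.20 and 2.59, and Mgl2 is at -1.56.

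The upstream sequences of the members were searched for letters known from myeloid gene control, as a description of the sequence only. Of the 10 members, 8 were found in the RefSeq promoter table (GRCm38.p6), from which the 250 bases upstream of each start site were read. Clec4n and Clec10a were not matched. The 6 letters GAGGAA, the purine-rich core of sites bound by the myeloid factor PU.1, were found on either strand in 7 of these 8 members, Clec4a2 being the exception. They were found in 25.9% of the 27025 genes of the table and in 23.3% of its 32851 windows. These letters were chosen after the sequences had been seen. The longer GAGGAAGT, which contains them, was in 0 of 8 members, against 2.79% of all genes and 2.44% of all windows. TTGCNNAA, as bound by C/EBP factors, was in Clec12a and Clec4e, against 10.8% of all genes and 9.56% of all windows. TGANTCA, the AP-1 site, was in Clec12a, against 7.82% of all genes and 6.75% of all windows.

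The windows of the members with the highest and second highest rise and of the member that fell are given below, 5′ to 3′ on the strand of the gene, with GAGGAA or its reverse complement TTCCTC in capitals. They are shown because the letters stand in all of them, in genes that moved in opposite directions. The window of Clec4d is chr6:123261857-123262106 (plus strand), that of Clec4e chr6:123289872-123290121 (minus strand) and that of Mgl2 chr11:70130107-70130356 (plus strand).
Clec4d: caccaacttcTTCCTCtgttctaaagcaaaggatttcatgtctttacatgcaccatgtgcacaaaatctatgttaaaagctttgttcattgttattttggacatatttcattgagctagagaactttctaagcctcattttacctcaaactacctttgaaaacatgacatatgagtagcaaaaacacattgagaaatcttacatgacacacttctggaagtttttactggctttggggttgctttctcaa
Clec4e: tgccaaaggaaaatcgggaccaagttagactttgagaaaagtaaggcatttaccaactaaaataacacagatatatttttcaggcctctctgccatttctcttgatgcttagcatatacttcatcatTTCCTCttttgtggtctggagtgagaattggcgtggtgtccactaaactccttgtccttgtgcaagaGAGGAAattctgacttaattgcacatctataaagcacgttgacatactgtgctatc
Mgl2: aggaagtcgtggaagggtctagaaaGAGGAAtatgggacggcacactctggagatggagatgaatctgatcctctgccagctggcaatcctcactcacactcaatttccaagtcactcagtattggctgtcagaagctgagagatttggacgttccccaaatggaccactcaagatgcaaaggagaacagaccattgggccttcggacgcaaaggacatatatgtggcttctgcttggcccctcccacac
The letters begin at -240 from the start site in Clec4d and at -225 in Mgl2, and stand at 2 places in Clec4e. A match to so short a run does not show binding. Spi1, the gene of PU.1, is described with the macrophage markers.

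All 6 members named Clec4 lie in 1 stretch of chromosome 6, in the order Clec4a1, Clec4a3, Clec4a2, Clec4n, Clec4d and Clec4e. Along this order the fold changes were 1.44, 2.11, 2.05, 5.83, 39.8 and 6.01, so that the 3 genes at the Clec4e end had the higher values. Between the members lie Clec4a4, Clec4b1 and Clec4b2, lectins of the same family, and none of these 3 was called. Clec4b1 had a log2 fold change of 0.77 ± 0.42 (baseMean 18.4, adjusted p = 0.191, DESeq2), while Clec4a4 and Clec4b2 had baseMean values of 3.25 and 0.17 and no adjusted p.

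Of the 5 protein-coding genes just before Clec4a1, 1 was called. This was C3ar1, the receptor for the complement fragment C3a, found on myeloid cells, with a log2 fold change of 2.23 ± 0.13 (adjusted p = 1.84e-60, DESeq2). Necap1, the gene next to Clec4a1, was at 0.14 ± 0.16 (adjusted p = 0.581), Foxj2 at 0.17 and Slc2a3 at 0.08, none of them called, and Nanog had no adjusted p. The 5 genes after Clec4e, the vomeronasal receptors Vmn2r19, Vmn2r20, Vmn2r21, Vmn2r22 and Vmn2r23, all had a baseMean of 0.

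**Figure D4:**
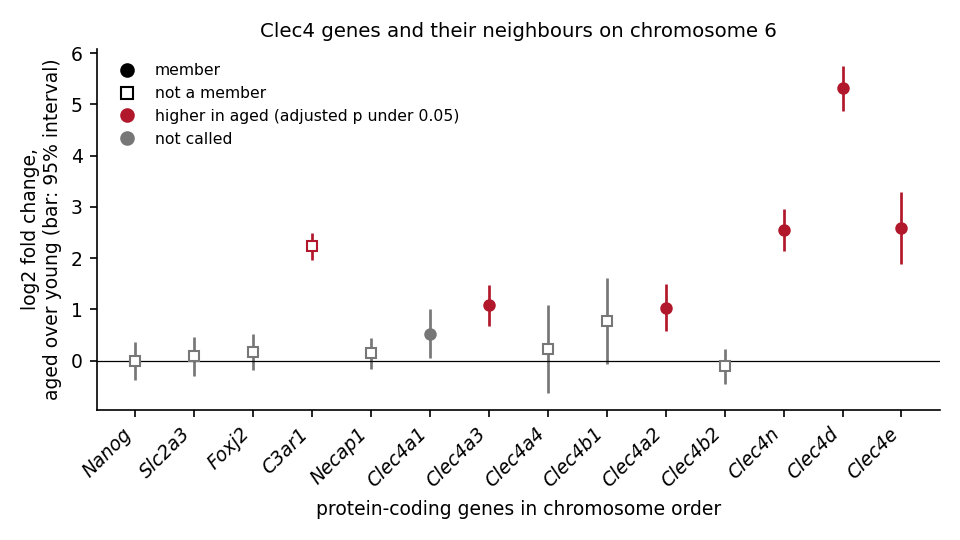
Log2 fold change, aged over young, of the Clec4 genes and the 5 protein-coding genes before them, in chromosome order and not to scale, with bars for the 95% interval. Filled circles are members and open squares other genes. Clec4n, Clec4d and Clec4e at the right end lie between 2.54 and 5.31, and C3ar1 is at 2.23 among neighbours near 0.

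The adaptors through which the activating receptors signal were higher in aged mice as well. Tyrobp, the partner of Clec5a, was estimated at 373 normalized counts in young and 3087 in aged mice, a log2 fold change of 3.05 ± 0.17 (adjusted p = 2.70e-67, DESeq2). Fcer1g, the partner of Clec4d, Clec4e and Clec4n, went from 152 to 512, at 1.75 ± 0.20 (adjusted p = 3.40e-16). Hcst, the second partner of Clec5a, was at 1.61 ± 0.35 (adjusted p = 5.55e-05). All 3 adaptors serve many other receptors of myeloid and natural killer cells.

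Of 20 genes listed for adaptors and signalling, all tested, 14 were higher, 0 were lower and 6 were not called, with a median log2 fold change of 1.07. Syk, the kinase that binds the adaptors, was at 1.78 ± 0.16 (adjusted p = 3.50e-27, DESeq2). Below it, the phospholipase Plcg2 was at 1.28 ± 0.15, the kinase Prkcd, which phosphorylates Card9, at 0.96 ± 0.12, and Card9 at 1.17 ± 0.24, each of them called. Bcl10 at 0.22 ± 0.14 (adjusted p = 0.252) and Malt1 at 0.15 ± 0.15 (adjusted p = 0.517), the partners of Card9 that are also used by lymphocytes and other cells, were not called.

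The phosphatases that ITIM receptors recruit were all called higher. Ptpn6 (SHP-1), which is found mainly in blood cells, was at 1.44 ± 0.17 (adjusted p = 2.51e-16, DESeq2) and Inpp5d (SHIP-1), likewise, at 1.49 ± 0.14 (adjusted p = 1.27e-23). Ptpn11 (SHP-2), which is found in most cell types, was at 0.42 ± 0.12 (adjusted p = 0.00388).

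Of 17 genes known as downstream of these receptors, mostly cytokines and chemokines, 11 were tested, 6 were higher, 0 were lower and 5 were not called, with a median log2 fold change of 0.91. The 6 were Ccl3 at 1.93 ± 0.38, Cxcl1 at 1.82 ± 0.35, the transcription factor Egr2 at 1.64 ± 0.28, Tnf at 1.60 ± 0.36, Il1b at 1.43 ± 0.33 and Ccl2 at 0.91 ± 0.36. Their adjusted p ran from 2.09e-07 for Egr2 to 0.0490 for Ccl2 (DESeq2), and the call of Ccl2 was lost under several other settings, with an adjusted p of 0.0686 with no filter on low genes. They were scarce, with baseMean values between 26.1 and 61.7 normalized counts, and 6 other genes of the list were too scarce to have an adjusted p. Many other pathways also induce these genes.

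Other C-type lectin genes were read for comparison. Of 42 listed, 27 were tested, and of these 10 were higher, 0 were lower and 17 were not called, with a median log2 fold change of 0.37. Clec7a, which encodes the beta-glucan receptor Dectin-1 and signals to Syk by a motif of its own, was at 4.62 ± 0.17 (adjusted p = 1.57e-162, DESeq2) with a baseMean of 2620, and the upper end of its interval overlaps the lower end of that of Clec4d. Mrc1, the mannose receptor of resident macrophages, was at 0.15 ± 0.14 (adjusted p = 0.512), and Cd209a at 0.17 ± 0.34 (adjusted p = 0.779). Neither was called.

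The 5 of these other lectins with the highest baseMean, not divided by length, were Colec12, Cd93, Mrc1, Clec14a and Mrc2, of which several are genes of endothelium or stroma. Colec12, a scavenger receptor of vascular cells, was higher at 1.37 ± 0.16 (adjusted p = 9.39e-16, DESeq2). Cd93 at 0.37 (adjusted p = 0.0570), Mrc2 at 0.23 (adjusted p = 0.216) and Clec14a at -0.23 (adjusted p = 0.330) were not called. High values were therefore found in some lectins and not in others, within the 10 members and outside them.

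Of the cells that could carry the receptors, macrophages had markers that were mostly higher in aged mice as well. Of 17 macrophage markers 16 were tested, 13 were higher, 2 were lower and 1 was not called, with a median log2 fold change of 1.50. Their summed level was 18496 normalized counts in young and 111808 in aged mice. Lyz2, which has no p-value in the table, made up most of the aged sum, and over the other 16 genes the sums were 14222 and 38940, a ratio of 2.74. The part of macrophage number in the values of the members was not tested. In bulk tissue, fewer or more cells of a type cannot be told apart from less or more RNA per cell.

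Single macrophage markers differed widely in size. The level of Adgre1 (a surface receptor of mature macrophages, listed under its older symbol Emr1) rose by 2.12 ± 0.16 (adjusted p = 5.89e-38, DESeq2), that of Ptprc (CD45) by 1.94 ± 0.12, and that of Cd68, a lysosomal protein, by 3.37 ± 0.14. Csf1r, the receptor on which most tissue macrophages depend, was at 0.37 ± 0.13 (adjusted p = 0.0276), a call lost after centring on abundant genes (adjusted p = 0.0801). Against the interval of Adgre1, 3.50-fold to 5.39-fold, that of Clec4d lies above and those of Clec4e, Clec4n, Clec12a and Clec5a overlap it. Those of Clec4a3, Clec4a2, Clec4a1, Clec10a and Mgl2 lie below. This sorting depends on the marker taken. The interval of Csf1r, 0.11 to 0.63 on the log2 scale, lies below those of Clec4e, Clec4n, Clec12a, Clec5a and Clec4a3. That of Cd68, 3.10 to 3.64, lies above those of Clec4n, Clec12a and Clec5a.

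The 2 macrophage markers that were lower were Cd163 and Lyve1, named here after their values were seen. Cd163, a scavenger receptor for haemoglobin, was at -2.34 ± 0.24 (adjusted p = 4.70e-20, DESeq2) and Lyve1, a hyaluronan receptor, at -2.01 ± 0.27 (adjusted p = 2.15e-12). Both are known as markers of resident perivascular macrophages, as is Mrc1, which was not called. Mgl2 went the same way as Cd163 and Lyve1, while Spi1, also named after its value was seen, was at 1.58 ± 0.21 (adjusted p = 2.30e-12).

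The lists of the other myeloid cells differed from each other. Of 12 neutrophil markers 8 were tested, 4 were higher and 0 were lower. All 8 lay above 0, with a median log2 fold change of 1.15. The summed level of the list was 233 in young and 672 in aged mice. The 4 that were higher were S100a8 at 2.34 ± 0.27, S100a9 at 1.47 ± 0.31 and, named after their values were seen, Csf3r, the receptor for granulocyte colony-stimulating factor, at 1.73 ± 0.24 and the collagenase Mmp8 at 2.08 ± 0.39. The other 4 that were tested, Ltf, Camp, Retnlg and Cxcr2, had baseMean values of 41.1, 33.9, 15.6 and 9.16 normalized counts and were not called. Of the 4 that were not tested, Ngp was at 2.92, Elane at 0.35, Ly6g at 0.30 and Mpo at 0. Of 6 monocyte markers, all tested, 2 were higher and 1 lower, with a median log2 fold change of 0.04. Ly6c2 was higher at 1.51 ± 0.41 (adjusted p = 0.00242, DESeq2), as was the chemokine receptor Ccr2 at 0.59 ± 0.16 (adjusted p = 0.00329). Vcan, also a matrix gene of stromal cells, was lower at -1.63 ± 0.39 (adjusted p = 0.000423), and it and Ccr2 are named after their values were seen. The summed monocyte level was 2603 in young and 1744 in aged mice, but 1069 and 1248 without Vcan, so the direction of the sum turns with that gene. The part of neutrophils and monocytes in the values of the members was not tested.

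Of 9 dendritic cell markers, all tested, 3 were higher and 6 were not called, with a median log2 fold change of 0.81. Their summed levels were 903 in young and 4288 in aged mice. Flt3 was at 1.06 ± 0.30 (adjusted p = 0.00338, DESeq2) and Zbtb46 at -0.15 ± 0.14 (adjusted p = 0.485). Xcr1, named after its value was seen, was at 0.81 ± 0.31 (adjusted p = 0.0468), a call lost with no filter on low genes (adjusted p = 0.0657) and after centring (adjusted p = 0.0717). Most of the aged sum was Itgax, named after its value was seen, at 5.43 ± 0.18 and an estimated 79.5 normalized counts in young and 3434 in aged mice. Itgax (CD11c) is also found on activated macrophages. The part of these cells in the values of the members was not tested either.

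Most markers of the labelled tissue were present in quantity. Rpe65, the isomerase of the visual cycle, averaged 43745 normalized counts over the 6 libraries, with a fold change of 0.10 ± 0.16 on the log2 scale (adjusted p = 0.724, DESeq2). Best1 was the scarcest RPE marker, with a baseMean of 69.8, and was at 0.68 ± 0.26 (adjusted p = 0.0409, but 0.0573 with no filter on low genes). Over 10 RPE markers 8 were tested, 2 were higher and 0 lower. Of 8 endothelial markers 7 were tested and 1 was lower, with a median log2 fold change of -0.17. This was Tek, named after its value was seen, at -0.44 ± 0.15 (adjusted p = 0.0198). Pecam1, at -0.19, had no p-value.

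**Figure D5:**
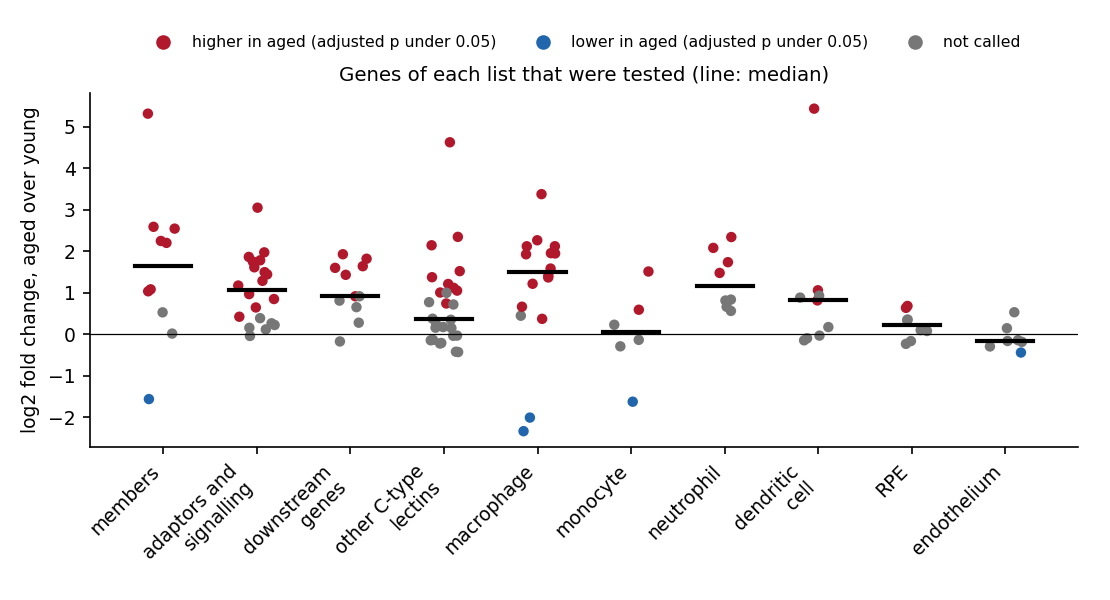
Log2 fold change, aged over young, of every tested gene of each list, 1 point per gene, with the median as a line. The medians are 1.64 for the members, 1.07 for adaptors and signalling, 0.91 for downstream genes and 0.37 for other C-type lectins. Among markers they are 1.50 for macrophages, 0.04 for monocytes, 1.15 for neutrophils, 0.81 for dendritic cells, 0.22 for RPE and -0.17 for endothelium.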

How the data were processed

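Total RNA of RPE/choroid from 3 young and 3 aged mice was depleted of ribosomal RNA and made into stranded libraries without poly(A) selection. The authors trimmed paired-end reads of 100 bases with BBDuk, mapped them to Ensembl transcripts of GRCm38 with STAR, quantified them with Sailfish, normalized to the total count and tested aged against young with DESeq2. Sailfish divides reads that fit several genes, which bears on Mgl2 and Clec10a.

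The 1 table analysed holds that comparison and no library's own values (0 columns name a sample), so the depth per library is not known from it and no test was rerun. It holds only columns of the authors' own comparison, and their deposited values are described here as such. The deposited baseMean is a normalized signal. Fold changes and their errors, as deposited, are log2 values. The Wald score deposited by the authors is their ratio. The p-values and adjusted p-values were deposited by the authors. A p-value recomputed from the Wald score was within 0.449% of the deposited one. The sign, not stated in the file, was taken as young over aged and reversed. The median SE was 0.24 for untested genes with a baseMean under 2 and 0.43 for tested genes with a baseMean under 30, as shrinkage of fold changes towards 0 would give. That is an inference, and changes of scarce genes would then be understated.

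Of 33924 genes, 7243 had a baseMean of 0, 160 had a fold change but no p-value and 7885 had no adjusted p, which left 18636. A gene is called where its adjusted p is under 0.05. Group levels are estimates from the baseMean and the fold change with equal group sizes. Genes of like abundance are those tested with a baseMean within 1.5-fold. Nothing in the labels ties samples of the 2 groups together, and mice were taken as separate animals.

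Positions, transcripts and coding sequences are from GENCODE M21 (GRCm38), matched by symbol for all 10 members, and promoters from RefSeq. Words of 31 bases were compared among the GENCODE transcripts of all genes. The authors mapped to Ensembl transcripts, in which the shares of such words may differ. Python 3.11.15, pandas 2.3.3, scipy 1.17.1 and Biopython 1.88 were used, and the scripts were tested on simulated data.

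The members and lists were chosen with earlier results of these data known. Genes were named by a rule, apart from those said in the text to be named after their values were seen, Lyz2 and the neutrophil list, which is given whole: all members, adaptors and main signalling genes, chosen lectins and the 5 of highest baseMean, up to 6 downstream genes that pass, defining markers, and the 5 protein-coding genes on either side of the Clec4 members. The alternatives tried were a stricter threshold, a minimum fold change, other filters on low genes and centring on abundant genes.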

Additional observations from a re-analysis of the deposited data

How the results depend on the processing

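The count of 8 called members was the same at a threshold of 0.01, at a minimum change of 1 on the log2 scale, with no filter on low genes, with a baseMean of at least 10, and after centring fold changes on the median of genes with a baseMean of at least 100 (0.06). No member changed direction or crossed the threshold in any of these, except that Clec10a turned from 0.01 to -0.051 after centring (adjusted p = 0.923). Neither value passed the threshold. With only the 7 members that have at least 90% of their 31-base words to themselves, an alternative chosen after seeing the data, the median log2 fold change was 2.25 in place of 1.64. The 3 genes left out are Mgl2, Clec10a and Clec4a2. In the other lists some calls ended. The 14 signalling calls became 10 at the minimum change, without Lyn, Prkcd, Nfatc1 and Ptpn11. The 6 downstream calls became 5, without Ccl2, at the threshold of 0.01, at the minimum change, with no filter and after centring. The 10 calls among other lectins became 9 in the same settings, without Cd302 at the minimum change and without Cd69 in the rest. The 15 macrophage calls became 14 at 0.01 and after centring, without Csf1r, and 13 at the minimum change, without Csf1r and Mertk. Best1 and Xcr1 were likewise lost in all but the baseMean setting, Tek at 0.01 and at the minimum change, and Ccr2 and Rgr at the minimum change. Over all genes, 3949 were called, against 2520 at the threshold of 0.01 and 1542 at the minimum change, and centring moved the share of calls that are higher in aged mice from 53.2% to 42.0%. No paired analysis was possible because no library has values of its own in the table. Leaving out each library and another normalization with another count test were not run for the same reason. Every direction rests on the sign taken for the file, and abundance limits Clec4e most.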
